A study of Homo sapiens with 12 samples.

Results

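Gene expression in HCC827 cells given 2.5 µM of the compound 18E for 24 h was compared with that in HCC827 cells given DMSO, the solvent control. The genes described are those with a symbol, FPKM values in every library of the compound experiment, and at least 1 FPKM in either of these 2 libraries: 11471 of 16760 genes. FPKM counts a gene's fragments per kilobase of its transcript, relative to all fragments of a library. Each treatment had 1 library, so no difference below has a replicate check, a standard error or a p-value, and genes are described by the size of the difference alone. Differences are on the scale of log2(FPKM + 1), which understates those of low genes.

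HCC827 is an established line of human lung adenocarcinoma with an activating deletion in EGFR and many extra copies of that gene. NCI-H1975, the other line of the series, is a lung adenocarcinoma line with other EGFR mutations. Both lines also received 5 µM 18E for 24 h, and in a separate experiment each had a control siRNA, called siCON here, or an siRNA named siDYN-1 or siDYN-2 for 48 h. The labels give 18E by its code only, name DMSO as the treatment of the controls with no time, and do not say how many cultures a library came from. Autophagy and LIC1, another name of the dynein subunit gene DYNC1LI1, stand in the title of the series.

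Cells that lack amino acids or haem, carry unfolded protein or sense double-stranded RNA phosphorylate eIF2α, which slows translation and favours the transcription factor ATF4. ATF4 and its partner CHOP then switch on amino acid synthesis, amino acid uptake and stress regulators, together called the integrated stress response. Heat shock factor drives chaperones through a separate route, and interferon-stimulated genes are driven by STAT and IRF factors that bind a repeated GAAA element.

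The sequences below lie before an annotated transcript start of genes that stand for the main groups described here (RefSeq, GRCh38.p14, written 5′ to 3′ on the strand of the gene, 120 bases each). The ASNS window precedes an internal start and lies within the RefSeq span of the gene, 97851677 to 97928441. Capitals mark matches to a motif on either strand. The interferon-response element was searched as GAAA, 2 bases of any kind and GAAA, and its 2 matches in ISG15 share 4 bases. The heat shock element was searched as TTC, GAA and TTC with 2 bases of any kind between them. TGATGNAA stands for the ATF4 and C/EBP composite element and ACGTG for the core of the hypoxia-response element.
ISG15, chr1:1013332-1013451, plus strand: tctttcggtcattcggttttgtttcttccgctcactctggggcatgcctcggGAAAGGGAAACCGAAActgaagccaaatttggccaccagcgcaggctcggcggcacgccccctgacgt
IFI6, chr1:27672253-27672372, minus strand: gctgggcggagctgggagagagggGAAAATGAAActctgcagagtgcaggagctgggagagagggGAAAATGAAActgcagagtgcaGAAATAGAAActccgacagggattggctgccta
ASNS, chr7:97872413-97872532, minus strand: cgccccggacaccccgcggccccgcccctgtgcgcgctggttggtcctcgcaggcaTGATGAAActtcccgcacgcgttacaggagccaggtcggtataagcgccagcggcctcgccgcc
CHAC1, chr15:40953221-40953340, plus strand: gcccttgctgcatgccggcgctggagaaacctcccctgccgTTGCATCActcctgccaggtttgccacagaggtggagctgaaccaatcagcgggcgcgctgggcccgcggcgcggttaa
HSPA6, chr1:161524412-161524531, plus strand: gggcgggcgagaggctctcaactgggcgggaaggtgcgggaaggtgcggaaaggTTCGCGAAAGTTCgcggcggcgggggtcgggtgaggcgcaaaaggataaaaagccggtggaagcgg
PGK1, chrX:78103998-78104117, plus strand: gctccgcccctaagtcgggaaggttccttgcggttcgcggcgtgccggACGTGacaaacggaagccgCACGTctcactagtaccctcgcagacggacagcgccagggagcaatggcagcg

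Some of these motifs are common and some are rare, also among the 9334 members with a window. Among 35116 windows of 250 bases before a gene's start, the interferon-response element was in 3.02%, TGATGNAA in 3.14%, the heat shock element in 0.441% and ACGTG in 18.5%. Among members the shares were 3.13%, 2.28%, 0.418% and 29.2% in the same order. Of the 33 interferon-stimulated members with a window, 21 held the interferon-response element (63.6%), and their median difference was 0.42 against 0.61 for those without it. Of 31 integrated stress response members, 6 held TGATGNAA (19.4%), with a median difference of 1.21 against 0.77. Of 22 heat shock members, 7 held the heat shock element (31.8%), with a median of -0.35 against -0.04. Of 27 glycolysis and hypoxia members, 16 held ACGTG (59.3%), with a median of -0.43 against -0.31. ACGTG is also the core of TCACGTGA, a longer element of lysosomal genes, which was in 0.854% of windows, 2.14% of members and 5 of 24 lysosomal members. A match describes the letters and does not show that a factor binds there.

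The labelled cell type was checked against markers of lung epithelium. With DMSO and with 2.5 µM 18E, EPCAM was at 418.24 and 502.09 FPKM, KRT8 at 2790.85 and 2649.43, NAPSA at 272.78 and 277.96, and NKX2-1, the lung lineage factor, at 32.33 and 21.43. EGFR was at 615.58 and 595.06 FPKM, against 25.35 in NCI-H1975 with DMSO. Of 14 blood, endothelial and stromal markers in the table, 12 were under 1 FPKM in both libraries and COL3A1 was listed at 0 in both. Their summed level was 4.21 FPKM with DMSO and 5.8 with 18E. CD14 was at 1.13 and 2.2 FPKM and COL1A1 at 1.12 and 1.11. FPKM totals were 486409 with DMSO and 500873 with 2.5 µM, and 1395 and 1082 genes were listed at 0. In bulk RNA, fewer cells of a type and less RNA per cell cannot be told apart.

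At 2.5 µM, 153 genes were at least 2-fold higher (1.33% of the 11471) and 64 at least 2-fold lower (0.558%). At 1.5-fold, 542 were higher (4.72%) and 345 lower (3.01%). The median difference over all genes was 0.01, with 5911 genes above 0 and 5528 below. The genes at least 2-fold higher had a median level of 2.64 FPKM with DMSO and 10.1 with 18E. Of these 153 genes, 55 were under 5 FPKM in both libraries, as were 2857 of all 11471 and 14 of the 64 lower ones. Those at least 2-fold lower had a median of 13.6 FPKM with DMSO and 4.71 with 18E. By the same rule, 5 µM gave 1001 genes at least 2-fold higher (8.52%) and 872 lower (7.42%) against the same DMSO library. NCI-H1975 at 2.5 µM gave 81 higher (0.709%) and 33 lower (0.289%) against its own DMSO library, and at 1.5-fold 341 higher (2.98%) and 308 lower (2.69%). The SD of the difference across genes was 0.36 in HCC827 at 2.5 µM, 0.82 in HCC827 at 5 µM and 0.31 in NCI-H1975 at 2.5 µM. No test of these counts between doses or lines was possible with 1 library each.

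**Figure D1:**
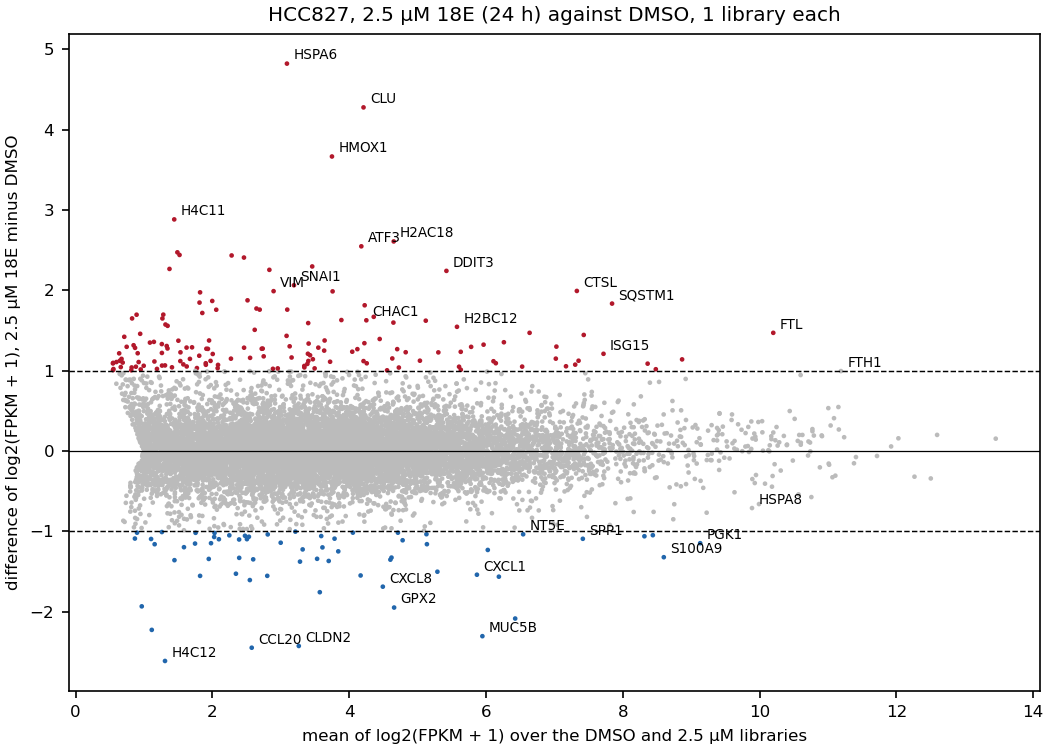
Difference of log2(FPKM + 1) at 2.5 µM 18E minus DMSO in HCC827 (vertical axis) against the mean level in the 2 libraries (horizontal axis), 1 point per gene. Red points are the 153 genes at least 2-fold higher and blue points the 64 at least 2-fold lower. HSPA6 (4.82), CLU (4.28) and HMOX1 (3.67) stand above the rest, and no gene is lower by more than 2.61.

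The largest positive differences were those of HSPA6, CLU and HMOX1, each low with DMSO. Among the 15 largest were also the histone genes H4C11, H2AC18, H2BC8 and H2BC21, and RASD1, RFPL4A, DHRS2 and DEFB103A. HSPA6, an HSP70 chaperone that is expressed only under strong stress (chromosome 1, 161524540 to 161526894), was at 0.6 FPKM with DMSO, 44.29 with 2.5 µM and 1337.1 with 5 µM. In NCI-H1975 it was at 1.3 FPKM with DMSO and 2.07 with 2.5 µM. CLU, which encodes the secreted chaperone clusterin (chromosome 8, 27596917 to 27614700), was at 3.2, 80.48 and 230.27 FPKM in HCC827, a difference of 4.28 at 2.5 µM. HMOX1, the haem oxygenase that degrades haem (chromosome 22, 35381096 to 35394207), was at 2.77 FPKM with DMSO, 46.88 with 2.5 µM and 62.03 with 5 µM, a difference of 3.67 at 2.5 µM. HMOX1 started from a higher level in NCI-H1975, where it was at 98.33 FPKM with DMSO and 244.74 with 2.5 µM. For CLU and HMOX1 the low dose covered more of the distance to the level at 5 µM than it did for HSPA6. DUSP1, a phosphatase that switches off MAP kinases, was at 3.96, 23.39 and 239.45 FPKM, and SNAI1, a repressor of epithelial genes, at 3.47, 17.69 and 385.55.

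Integrated stress response genes were higher. Of 36 members, 35 were above 0, 24 were at least 1.5-fold higher and 13 at least 2-fold higher, and none was 1.5-fold lower. Over all genes, 4.72% were at least 1.5-fold higher and 3.01% lower, the base shares for this and later lists. Their median difference was 0.79, against 0.01 over all genes. DDIT3, which encodes CHOP (chromosome 12, 57516588 to 57520517), was at 18.7 FPKM with DMSO, 92.24 with 2.5 µM and 402.27 with 5 µM in HCC827. ATF3, a stress-induced transcription factor, was at 6.48, 42.76 and 433.7 FPKM. ATF4 itself, chosen here after its values were seen, was at 264.75, 340.38 and 440.23 FPKM, a difference of 0.36 at 2.5 µM. All 3 of these factors were ordered by dose.

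Metabolic targets of ATF4 had more than 1 order over the doses. PCK2, the mitochondrial enzyme that makes phosphoenolpyruvate, was at 13.39 FPKM with DMSO, 42.59 with 2.5 µM and 10.98 with 5 µM. PSAT1, a serine synthesis enzyme, was at 124.17, 244.07 and 142.37 FPKM, and CHAC1, which degrades glutathione, at 9.83, 32.46 and 24.9. These 3 genes were highest at 2.5 µM. ASNS, asparagine synthetase, was at 82.27, 204.02 and 251.13 FPKM, and CTH, which makes cysteine, at 18.81, 60.01 and 66.55. Only a gene above DMSO can be highest at 2.5 µM among the 3 HCC827 libraries. Of the 35 members above 0, 19 were, and over all genes 3423 of the 5911 above 0 were. At 5 µM the median of the same list against the same DMSO library was 0.34, with 22 members above 0 and 14 below.

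Transcripts of amino acid transporters were higher with these genes, and those of tRNA synthetases differed by less. Among 15 amino acid transporters, several of which are also ATF4 targets, 8 were at least 1.5-fold higher, 3 at least 2-fold higher and none 1.5-fold lower, with a median of 0.64 (0.36 with no filter on low values). SLC3A2, the chain that carries several exchangers to the membrane, was at 313.52 FPKM with DMSO, 692.59 with 2.5 µM and 587.12 with 5 µM. SLC1A5, a glutamine transporter, was at 109.78, 240.5 and 148.79, and SLC6A9, a glycine transporter, at 15.58, 32.27 and 8.78. Here 11 of the 13 members above 0 were highest at 2.5 µM. Among 20 cytosolic aminoacyl-tRNA synthetases, 18 were above 0 and 15 were highest at 2.5 µM, though only 3 reached 1.5-fold (median 0.26). AARS1, the alanine enzyme, was at 143.93, 240.4 and 199.59 FPKM. Of the 17 mitochondrial synthetases, 6 were above 0 and 11 below, with a median of -0.11 and none at 1.5-fold in either direction.

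**Figure D2:**
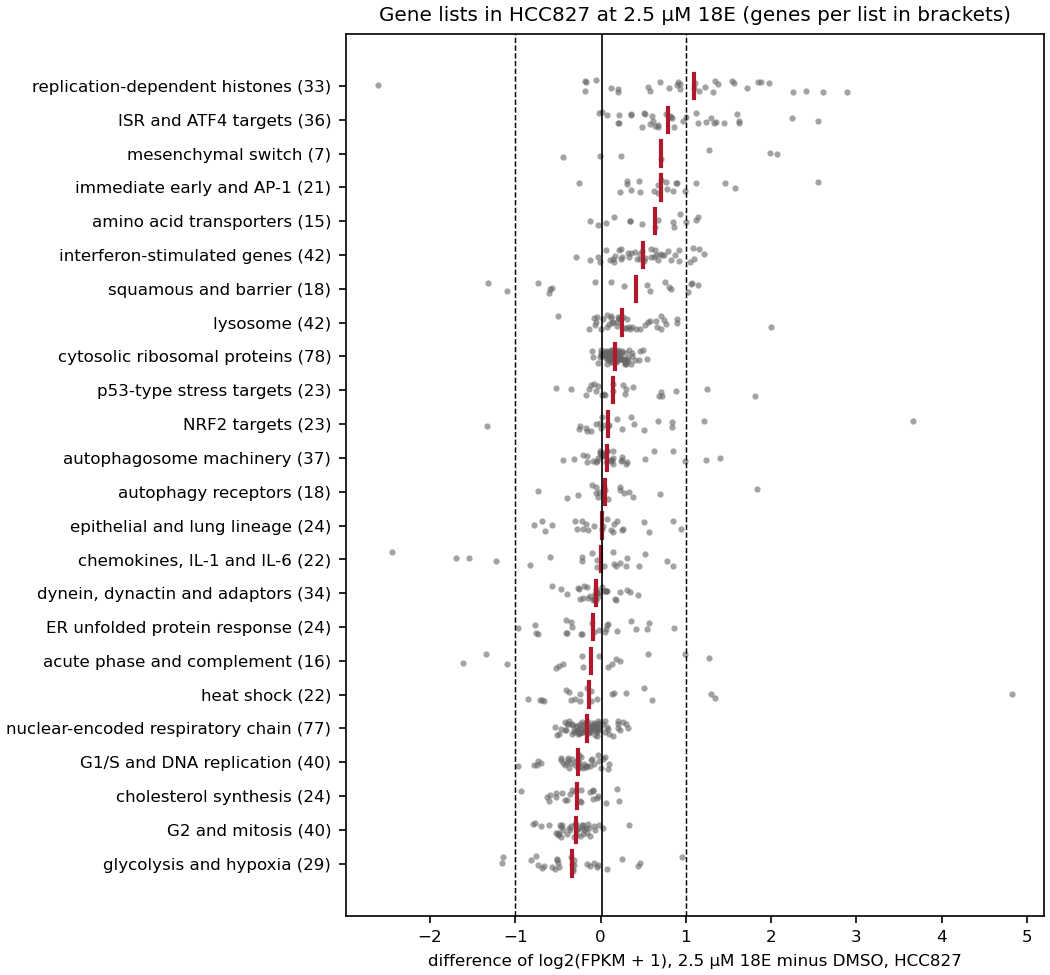
Difference of log2(FPKM + 1) at 2.5 µM 18E minus DMSO in HCC827 for members of 24 of the gene lists, 1 grey point per gene, with red bars at list medians, dashed lines at 2-fold and a solid line at the median of all genes. Medians run from 1.09 for histones and 0.79 for integrated stress response genes to -0.33 for glycolysis and hypoxia.

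Histone genes had a median of 1.09 over 33 members (0.36 with no filter on low values). Of these, 17 were at least 2-fold higher and 1 at least 2-fold lower. H2AC18, which encodes an H2A histone, was at 9.17 FPKM with DMSO, 61.06 with 2.5 µM and 181.69 with 5 µM. H2BC8, an H2B gene, was at 1.39, 11.69 and 31.31 FPKM, and H2BC21, another, at 2.26, 14.57 and 10.25. By class, 8 of 11 H2B genes were at least 2-fold higher, 4 of 8 H4 genes, 3 of 7 H2A genes, 1 of 5 H3 genes and 1 of 2 H1 genes. By place, these were 15 of the 25 on chromosome 6 and 2 of the 7 on chromosome 1. In NCI-H1975 the list had a median of 0.47, with 11 members at least 1.5-fold higher and 2 lower.

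Most transcripts of the core histone genes lack a poly(A) tail, and many of the genes are near-identical copies, so their levels depend on library preparation and read assignment. H4C11 and H4C12 show this. H4C11 was listed at 0 with DMSO and at 6.38 FPKM with 2.5 µM in HCC827, and H4C12 at 5.12 and 0. In NCI-H1975 the order was turned round: H4C11 was at 12.78 FPKM with DMSO and listed at 0 with 2.5 µM, and H4C12 was listed at 0 and then at 10.88. The sum of both was 5.12 FPKM with DMSO and 6.38 with 2.5 µM in HCC827, and 12.78 and 10.88 in NCI-H1975. Each sum differed far less than its parts. The other 31 histone members summed to 250.79 FPKM with DMSO, 461.31 with 2.5 µM and 787.14 with 5 µM.

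**Figure D3:**
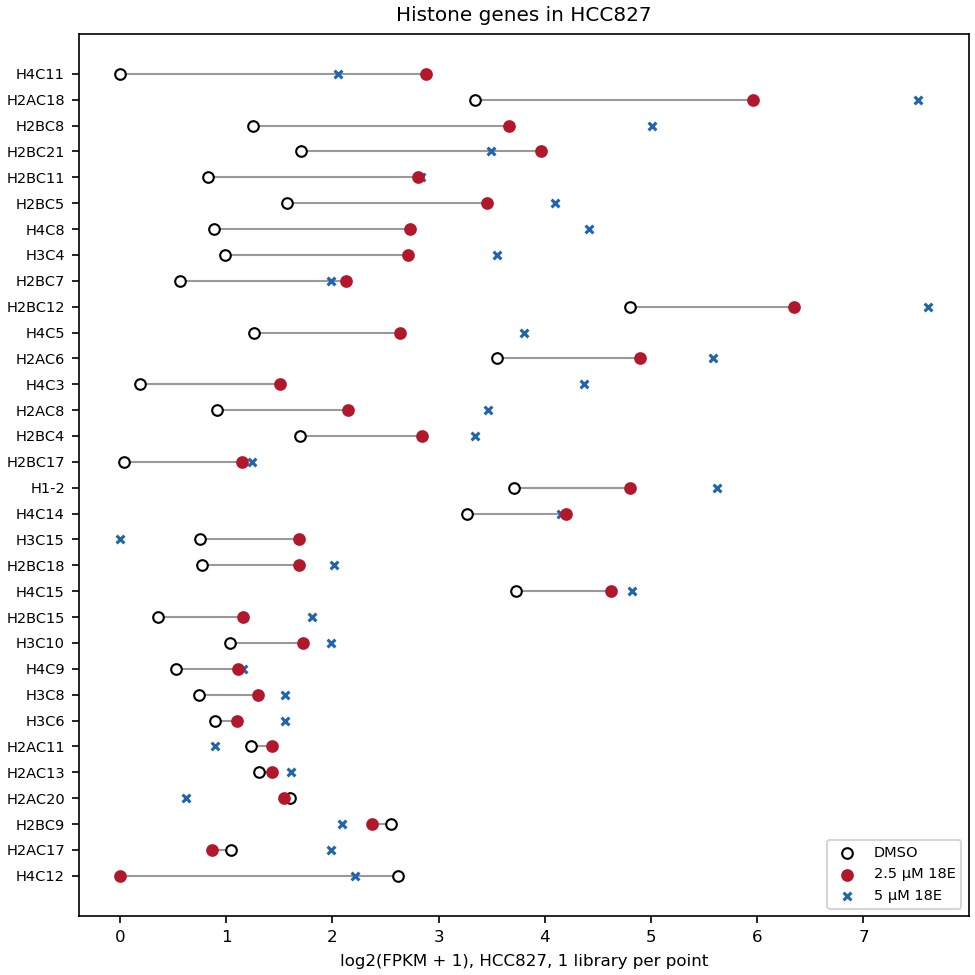
Level of each of 32 of the 33 histone genes in HCC827 as log2(FPKM + 1), 1 library per point: DMSO (open circles), 2.5 µM 18E (red) and 5 µM 18E (blue crosses), with a grey line joining DMSO to 2.5 µM. The list median difference at 2.5 µM is 1.09; H4C11 and H4C12, at the ends, are near-identical copies listed at 0 in opposite libraries.

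Interferon-stimulated genes were higher at 2.5 µM and, in most cases, not at 5 µM. Of 42 members, 38 were above 0 at 2.5 µM, 19 were at least 1.5-fold higher, 5 at least 2-fold higher and none 1.5-fold lower. The median was 0.50. ISG15, a ubiquitin-like protein that is joined to other proteins during antiviral responses (chromosome 1, 1013497 to 1014540), was at 137.44 FPKM with DMSO, 319.38 with 2.5 µM and 198.03 with 5 µM. IFI6, an antiviral membrane protein, was at 224.93, 479.18 and 156.04 FPKM. IRF7, the factor that amplifies interferon production, was at 15.61, 35.92 and 25.24, and IFI35 at 47.41, 102.29 and 51.74. Each of these 4 genes was highest at 2.5 µM.

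Of the 38 interferon-stimulated members above 0 at 2.5 µM, 37 were highest at that dose. Over all genes, 3423 of the 5911 above 0 were. At 5 µM the list median against the same DMSO library was -0.49, with 9 members above 0 and 33 below. MX1 and OAS2 were chosen after their values were seen. MX1, an antiviral protein, was at 63.15, 131.92 and 54.28 FPKM with DMSO, 2.5 µM and 5 µM, and OAS2, an RNA sensor, at 24.34, 46.87 and 10.55. In NCI-H1975 at 2.5 µM the list median was 0.05, with 3 members at least 1.5-fold higher and 1 lower. IFI6 there was at 60.34 and 65.03 FPKM. The 20 antigen presentation genes had a median of -0.01 in HCC827, with 3 at least 1.5-fold higher and 3 lower. HLA-E, a ligand of natural killer receptors, was at 52.86 and 89.76 FPKM with DMSO and 2.5 µM, and HLA-B, a classical class I chain, at 213.14 and 130.92.

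**Figure D4:**
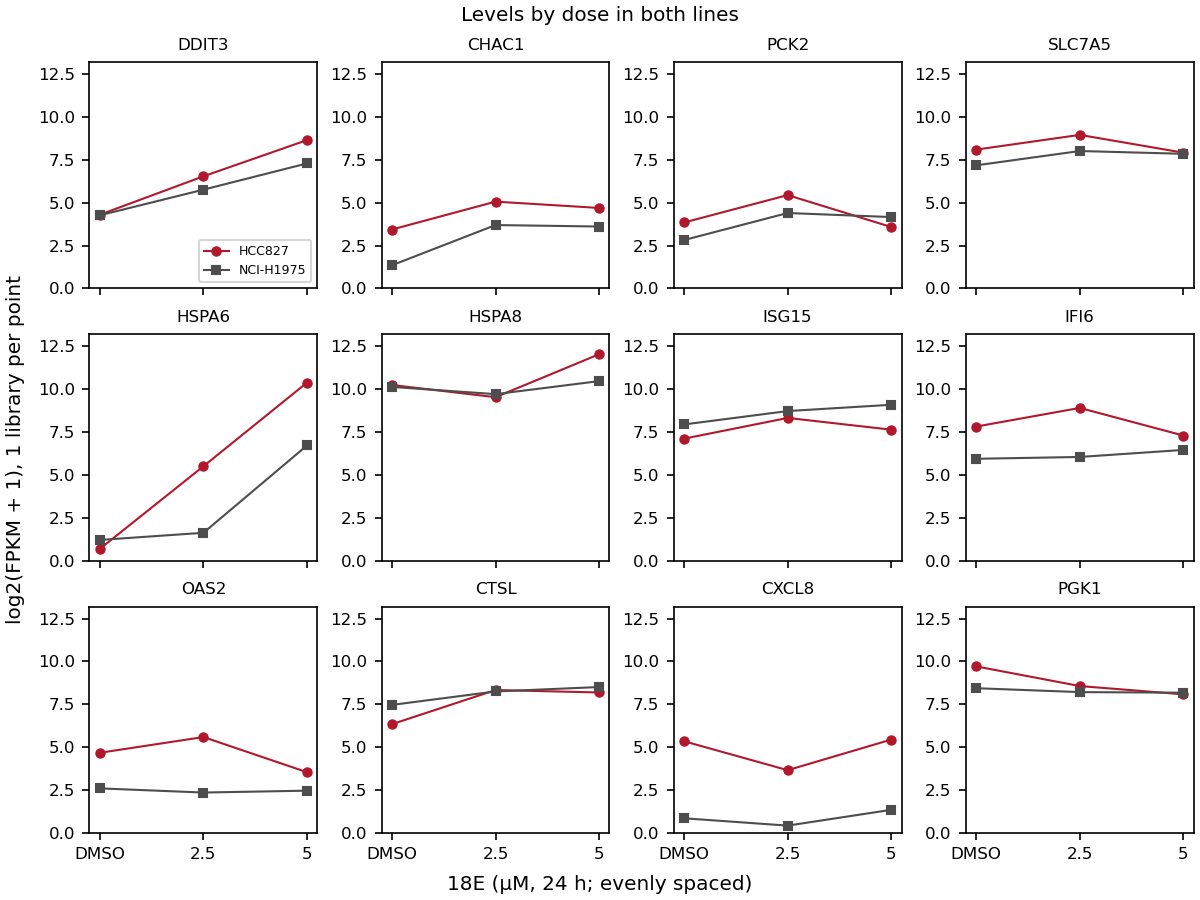
Level of 12 genes as log2(FPKM + 1) with DMSO, 2.5 µM and 5 µM 18E in HCC827 (red circles) and NCI-H1975 (grey squares), 1 library per point. In HCC827, ISG15, IFI6, OAS2 and PCK2 are highest at 2.5 µM, HSPA8 and CXCL8 are lowest there, and DDIT3 and HSPA6 (0.6, 44.29 and 1337.1 FPKM) are ordered by dose.

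Heat shock genes were split at the low dose. HSPA6 (above), HSPB8 and ZFAND2A were at least 2-fold higher of 22 members. HSPB8, a small chaperone that works with BAG3 in autophagy, was at 5.67 FPKM with DMSO, 15.86 with 2.5 µM and 114.22 with 5 µM, and ZFAND2A, a proteasome-associated protein, at 34.13, 85.31 and 1083.48. The abundant chaperones were lower. HSPA8, the constitutive HSP70, was at 1212.27 FPKM with DMSO, 740.69 with 2.5 µM and 4218.2 with 5 µM. HSP90AA1, the stress-responsive HSP90, was at 572.34, 317.22 and 2127.84 FPKM. Both were lowest at 2.5 µM.

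In the heat shock list as a whole, 8 members were above 0 and 14 below at 2.5 µM, with 4 at least 1.5-fold higher, 4 lower and a median of -0.14. The summed level was 5250.49 FPKM with DMSO, 4088.42 with 2.5 µM and 24454.06 with 5 µM. At 5 µM all 22 members were above 0 and the median was 2.01. HSPA1A and HSPA1B, near-identical inducible HSP70 genes whose reads cannot be told apart with confidence, were at 115.38 and 93.44 FPKM with DMSO and at 142.48 and 142.91 at 2.5 µM. Both were named after their values were seen. NCI-H1975 at 2.5 µM had a list median of -0.11.

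Genes that respond to unfolded protein in the endoplasmic reticulum went both ways. Of 24 members, 10 were above 0 and 14 below, and the median was -0.09. At 1.5-fold, 1 was higher (4.17%) and 4 lower (16.7%), against 4.72% and 3.01% of all genes. HERPUD1, which aids the removal of misfolded proteins, was at 25.46 FPKM with DMSO, 47.13 with 2.5 µM and 265.69 with 5 µM. CALR, a calcium-binding lectin chaperone, was at 780.63, 458.1 and 473.27 FPKM, PDIA4, a disulphide isomerase, at 370.98, 218.84 and 148.62, and CRELD2 at 30.57, 15.18 and 24.89. In NCI-H1975 the list median was 0.27, and CALR was at 446.14 FPKM with DMSO and 464.08 with 2.5 µM. HSPA5, the master chaperone BiP, was named after its values were seen and was at 393.64 and 503.81 FPKM in HCC827.

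Immediate early genes, which cells transcribe within minutes of a stimulus, were higher in HCC827. Of 21 members, 20 were above 0, 14 were at least 1.5-fold higher, 4 at least 2-fold higher and none 1.5-fold lower, with a median of 0.70. FOSB, an AP-1 subunit, was at 0.44 FPKM with DMSO, 3.29 with 2.5 µM and 103.35 with 5 µM, ARC at 0.16, 2.19 and 48.33, and KLF4, a zinc finger factor, at 11.55, 26.27 and 85.51. None of the 21 was highest at 2.5 µM. In NCI-H1975 the median was 0.22 and 2 members reached 1.5-fold. MAP kinase phosphatases went in different directions in HCC827: DUSP5 was at 23.2 and 38.28 FPKM with DMSO and 2.5 µM, and DUSP6, which acts on ERK, at 36.29 and 17.43.

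Damage and arrest genes were higher in part. Of 23 p53-type stress targets, 6 were at least 1.5-fold higher (26.1%, against 4.72% of all genes) and none lower. Their median was 0.14. GADD45B was at 8.98 FPKM with DMSO, 34.1 with 2.5 µM and 529.77 with 5 µM, and CDKN1A, the cyclin-dependent kinase inhibitor p21, at 7.05, 18.15 and 97.17. BBC3, a pro-death BH3 protein, was at 2.89, 6.2 and 26.15. Lower were BCL2A1, a survival protein, at 29.73, 9.5 and 10.99 FPKM, and BAD, another BH3 protein, at 23.56, 13.15 and 15.06. Of 14 BCL2 family members, 2 were at least 1.5-fold higher and 2 lower (14.3% each), with a median of -0.04.

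Autophagy genes differed in a few members only. Of 37 genes of the autophagosome machinery, 5 were at least 1.5-fold higher (13.5%, against 4.72% of all genes) and none lower. Their median was 0.07. GABARAPL1, a protein that coats the autophagosome membrane, was at 12.44 FPKM with DMSO, 34.34 with 2.5 µM and 175.05 with 5 µM. MAP1LC3B, which encodes LC3B, was at 31.3, 75.03 and 285.65 FPKM, and its near copy MAP1LC3B2 at 2.5, 5.29 and 29.6. WDR45, which acts on lipid transfer to the forming membrane, was at 10.14, 21.06 and 39.23. SQSTM1, the receptor p62 (chromosome 5, 179806393 to 179838078), was at 120.57, 432.91 and 1087.44 FPKM, a difference of 1.84 at 2.5 µM. In NCI-H1975 SQSTM1 was at 171.39 and 422.12 FPKM. The 18 receptors as a list had a median of 0.05, with 2 members at least 1.5-fold higher, SQSTM1 and CCPG1, and 1 lower, BNIP3.

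Lysosomal genes were higher at 2.5 µM in HCC827. Of 42 members, 36 were above 0, 9 were at least 1.5-fold higher and none lower, with a median of 0.26. CTSL, the protease cathepsin L (chromosome 9, 87726119 to 87731469), was at 79.57 FPKM with DMSO, 319.73 with 2.5 µM and 289.56 with 5 µM. PSAP, the precursor of the saposins, was at 353.81, 659.93 and 419.46 FPKM, CTSA, a protective carboxypeptidase, at 131.31, 244.51 and 149.95, and TPP1 at 20.01, 34.74 and 18.05. Among the 3 HCC827 libraries 27 of the 36 members above 0 were highest at 2.5 µM, and 3423 of the 5911 such genes over all. At 5 µM the list median was -0.12 against the same DMSO library, and in NCI-H1975 at 2.5 µM it was -0.02. CTSL in NCI-H1975 was at 174.79 and 301.76 FPKM.

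Regulators of the lysosome and of mTORC1 differed less. Of 14 genes of the TFEB, folliculin and Rag group none reached 1.5-fold. Of 22 mTORC1 and AMPK regulators 2 were at least 1.5-fold higher (9.09%, against 4.72% of all genes). SESN2, a stress-induced inhibitor of mTORC1, was at 9.75 FPKM with DMSO, 24.33 with 2.5 µM and 98.06 with 5 µM. DDIT4, another inhibitor, was at 387.01, 550.37 and 316.42.

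Ferritin had the largest gains in FPKM. FTH1, the heavy chain that stores iron, was at 1653.72 FPKM with DMSO, 3297.93 with 2.5 µM and 2167.29 with 5 µM. FTL, the light chain, was at 705.61, 1958.48 and 1881.03 FPKM. In NCI-H1975 FTL was at 553.64 and 1509.78 FPKM and FTH1 at 2651.4 and 4378.63. Other large gains were KRT7, the keratin of simple epithelia, at 1117.82 and 2154.06 FPKM with DMSO and 2.5 µM, OS9, an endoplasmic reticulum lectin, at 1707.43 and 2472.91, and EEF1A1, a translation elongation factor, at 1889.27 and 2508.67. RPS18, RPL12 and RPS2 were also among the 10 largest gains. Of 78 cytosolic ribosomal proteins 74 were above 0, with a median of 0.17 and none at 1.5-fold. The copies MTRNR2L2 and MTRNR2L8, which resemble mitochondrial RNA, were at 10633.12 and 5774.79 FPKM with DMSO and 11831.93 and 6637.39 at 2.5 µM.

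NRF2 targets differed in a few members. Of 23 members, 5 were at least 1.5-fold higher and 1 lower, with a median of 0.08. Beside HMOX1, OSGIN1 was at 5.92 FPKM with DMSO, 15.02 with 2.5 µM and 82.03 with 5 µM, and SRXN1, which repairs oxidised peroxiredoxins, at 34.49, 62.49 and 130.89. AKR1B10, an aldo-keto reductase, was at 37.9, 14.51 and 13.85. NQO1, a defining target named after its values were seen, was at 274.5 and 245.47 FPKM with DMSO and 2.5 µM. GPX2, a glutathione peroxidase of epithelia, was among the 15 largest negative differences, at 48.56, 11.84 and 9.02 FPKM.

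Among the 15 largest negative differences were those of CCL20 and CXCL8, both chemokines. CCL20, which attracts dendritic cells and lymphocytes, was at 12.92 FPKM with DMSO, 1.55 with 2.5 µM and 3.55 with 5 µM. CXCL8, the neutrophil attractant interleukin-8 (chromosome 4, 73740569 to 73743716), was at 39.39, 11.53 and 42.22 FPKM. CXCL1, its relative, was at 98.56, 33.24 and 25.85, and CSF2, the growth factor GM-CSF, at 14.26, 5.53 and 7.66. CXCL8, CCL20 and CSF2 were lowest at 2.5 µM. In their list of 22 members, 4 were lowest and 4 highest at that dose, against 16.4% and 29.8% of all genes. The chemokine and interleukin list had a median of 0.00 over 22 members, 11 above 0 and 11 below, with 4 at least 2-fold lower, which are the genes just named, and none 2-fold higher. Of 20 NF-kB subunit and feedback genes, 9 were above 0 and 11 below, with a median of -0.04. The 1 member at least 1.5-fold lower was ICAM1, an adhesion molecule, at 113.3 and 73.98 FPKM with DMSO and 2.5 µM. In NCI-H1975 these 4 chemokine genes were at or under 1.21 FPKM in both libraries, and CCL20 was listed at 0 in both.

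MUC5B, CLDN2 and KRT20 were among the 15 largest negative differences. A list of squamous and barrier genes went both ways. That list had 18 members, a median of 0.41, 4 at least 2-fold higher and 2 lower, and 7 at least 1.5-fold higher and 5 lower; with at least 1 FPKM required in both libraries its median was -0.067. KRT17, a keratin of stratified epithelium, was at 0.07 FPKM with DMSO, 1.37 with 2.5 µM and 2.72 with 5 µM, and SPRR2D, a cornified envelope protein with near copies, at 1.58, 4.43 and 12.43. S100A9, a calcium-binding inflammatory protein of the same list, was at 612.54, 244.44 and 164.33 FPKM. MUC5B, a gel-forming airway mucin (chromosome 11, 1223066 to 1262172), was at 136.17 FPKM with DMSO, 26.76 with 2.5 µM and 7.35 with 5 µM. CLDN2, a pore-forming tight junction claudin, was at 21.26, 3.14 and 2.44 FPKM, and KRT20, a keratin of gut epithelium, at 5.05, 1.06 and 1.09. MUC1, a membrane mucin, was at 76.7, 44.25 and 12.72. TNFRSF6B, a decoy receptor, was at 124.41, 41.41 and 45.75, and SPP1, osteopontin, at 248.41, 115.96 and 71.26. The list of epithelial and lung lineage genes had a median of 0.02 over 24 members, with 2 at least 1.5-fold higher, KRT7 and CLDN7, and 3 lower. That is 8.33% and 12.5%, against 4.72% and 3.01% of all genes. VIM, the intermediate filament of mesenchymal cells, was at 2.73, 13.82 and 26.53 FPKM, far below the 86.14 of NCI-H1975 with DMSO.

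Acute phase and complement genes had members in both directions. CP, the copper carrier ceruloplasmin, was at 9.2 FPKM with DMSO and 2.35 with 2.5 µM, and C3, the central complement protein, at 8.65 and 2.79. PIGR, which carries antibodies across epithelium, was at 6.68 and 2.58. CD55, which shields cells from complement, was higher, at 15.77 and 39.4 FPKM. Of the 16 members 3 were at least 1.5-fold lower and 2 higher.

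Most glycolysis and hypoxia genes were lower. Of 29 members, 24 were below 0, 7 were at least 1.5-fold lower and 1 higher, with a median of -0.33. PGK1, which makes ATP in glycolysis (chromosome X, 78104248 to 78129295), was at 834.01 FPKM with DMSO, 375.97 with 2.5 µM and 268.47 with 5 µM. ENO2, an enolase, was at 51.57, 22.53 and 22.9 FPKM, and LDHA, which makes lactate, at 1279.08, 809.03 and 466.0. GAPDH and TPI1 were among the 10 largest losses in FPKM, at 5498.31 and 4406.14 for GAPDH and 2110.68 and 1418.36 for TPI1. ANGPTL4, a lipase inhibitor, was the member at least 1.5-fold higher, at 14.05 and 28.07 FPKM. The summed level of the list was 16193.77 FPKM with DMSO, 12113.77 with 2.5 µM and 11184.69 with 5 µM. NCI-H1975 at 2.5 µM had a list median of -0.12.

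Most proliferation genes were slightly lower. Of 40 genes of G2 and mitosis 38 were below 0, with a median of -0.29, 4 at least 1.5-fold lower and none higher. MKI67, the antigen Ki-67, was at 22.32 FPKM with DMSO, 12.5 with 2.5 µM and 4.51 with 5 µM, and ANLN, a scaffold of the cleavage furrow, at 87.88, 50.98 and 48.54. Of 40 genes of G1/S and DNA replication 35 were below 0, with a median of -0.26 and 5 at least 1.5-fold lower. CCNE2, a cyclin of S phase entry, was at 11.26, 5.25 and 24.04 FPKM, and RRM1 and RRM2, which make deoxynucleotides, were at 39.56 and 140.2 with DMSO and 22.65 and 83.57 at 2.5 µM. Core histones, which are made with DNA replication, had the opposite sign, as given above. In NCI-H1975 the G2 and mitosis median was -0.32 and the G1/S median -0.06.

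Other metabolic lists were lower by less. Of 24 cholesterol synthesis genes 21 were below 0, with a median of -0.27 and 4 at least 1.5-fold lower. FDPS, which makes farnesyl diphosphate, was at 129.38 FPKM with DMSO, 85.65 with 2.5 µM and 63.97 with 5 µM. Of 77 nuclear-encoded respiratory chain genes 63 were below 0 with a median of -0.15, and none reached 1.5-fold.

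Dynein genes showed little difference at this dose. DYNC1LI1, a light intermediate chain of the dynein motor (chromosome 3, 32525974 to 32570858), was at 13.62 FPKM with DMSO, 13.08 with 2.5 µM and 25.03 with 5 µM, a difference of -0.05 at 2.5 µM. Of 34 dynein, dynactin and adaptor genes none was 1.5-fold higher or lower, and the median was -0.06. The largest differences were -0.57 for HOOK1, a cargo adaptor, at 17.51 and 11.44 FPKM, and -0.47 for NDE1, a dynein regulator, at 27.31 and 19.46.

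The same dose in NCI-H1975 gave a partly similar profile. Across 10740 genes with at least 1 FPKM in either library of each line, the differences in the 2 lines had Pearson's r = 0.42 and Spearman's rho = 0.42. This is a description across genes, which are not independent replicates, and the lines shared the compound, the dose and the table. In this set, 123 genes were at least 2-fold higher in HCC827 and 70 in NCI-H1975, and 30 were in both, which is 24.4% of the first and 42.9% of the second. For genes at least 2-fold lower the numbers were 32 and 23, with 1 in both (3.12% and 4.35%). Over all genes of each line's own comparison, 1.33% were at least 2-fold higher in HCC827 and 0.709% in NCI-H1975. The shares at least 2-fold lower were 0.558% and 0.289%. Of the 64 genes at least 2-fold lower in HCC827, 32 were under 1 FPKM in both NCI-H1975 libraries, against 6.37% of all members. Among them were MUC5B, CLDN2, CCL20 and GPX2.

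Integrated stress response genes were higher in both lines, with medians of 0.79 in HCC827 and 0.84 in NCI-H1975. ASNS was at 47.35 FPKM with DMSO and 336.83 with 2.5 µM in NCI-H1975, a difference of 2.80 against 1.30 in HCC827. HSPA6 was on the other side, with 0.42 in NCI-H1975 and 4.82 in HCC827. Of the genes that differed most between the lines, DHRS2, a mitochondrial reductase, was at 1.09 and 10.3 FPKM in HCC827 with DMSO and 2.5 µM, and at 450.33 and 218.04 in NCI-H1975. CYP1A1, a target of the aryl hydrocarbon receptor, was at 2.73 and 1.54 FPKM in HCC827 and 2.4 and 7.81 in NCI-H1975. PKIB, an inhibitor of protein kinase A, was at 19.89 and 7.09 in HCC827 and 27.94 and 37.59 in NCI-H1975. With 1 library per line and treatment, these differences between lines were not tested.

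**Figure D5:**
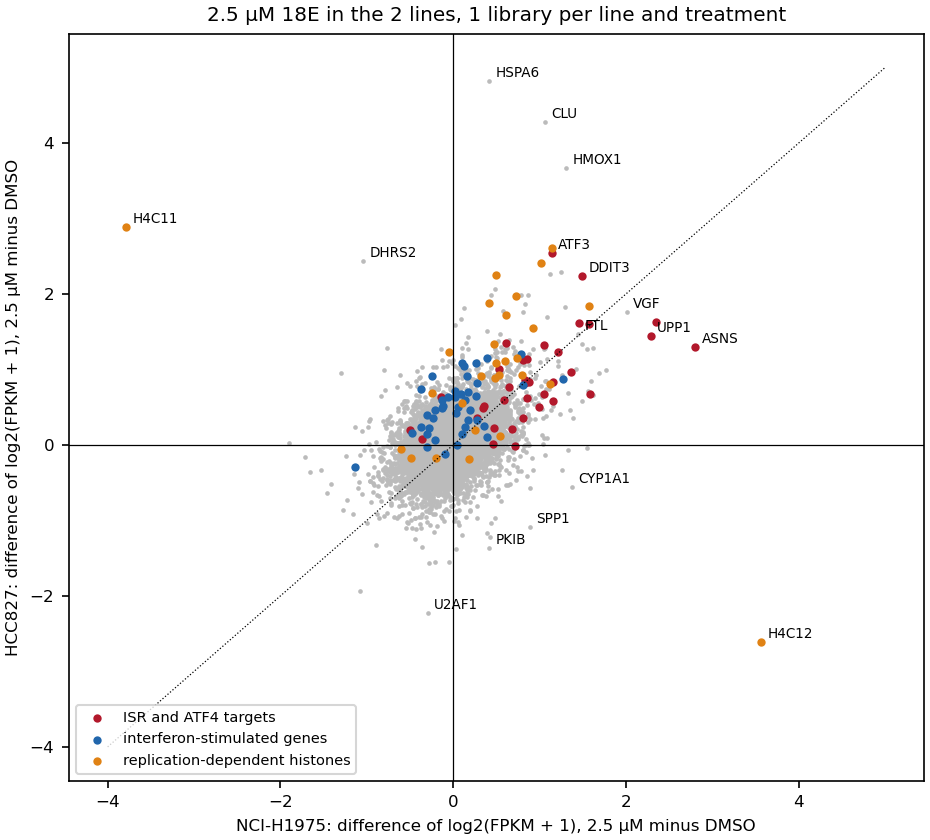
Difference of log2(FPKM + 1) at 2.5 µM 18E minus DMSO in HCC827 (vertical axis) against that in NCI-H1975 (horizontal axis) for 10740 genes, with equal differences on the dotted line. Integrated stress response genes (red) have similar medians in HCC827 and NCI-H1975, 0.79 and 0.84. Single members lie on either side of the line, such as ATF3 (2.55 and 1.14) and CHAC1 (1.63 and 2.35). Interferon-stimulated genes (blue, 0.50 and 0.05) lie mostly above it, and histones are orange.

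The siRNA experiment was normalized in a table of its own and has its own controls, so only differences are set beside those of 18E. Across 10937 genes, Pearson's r between the HCC827 differences with 2.5 µM 18E and those with siDYN was 0.21 for siDYN-1 and 0.33 for siDYN-2, again as a description across genes. Of the 123 genes at least 2-fold higher with 18E that had values there, 93 were above 0 with siDYN-1 and 113 with siDYN-2, where 45.9% and 51.4% of all members were above 0. Of the 60 genes at least 2-fold lower with 18E, 32 were above 0 and 27 below with siDYN-1 (median 0.03), and 26 above and 34 below with siDYN-2 (median -0.13). Integrated stress response genes had medians of 0.43 and 0.71 with the 2 siRNAs. Interferon-stimulated genes had -0.28 and 1.33, so the siRNAs went in different directions from each other. Histone genes had 0.53 and 0.87. The chemokines and interleukins were higher, with medians of 0.31 and 1.11, against 0.00 with 18E.

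Gene length and base composition moved with the genes that were higher. Of the 150 genes at least 2-fold higher that had a transcript length, 113 were in the shortest tercile of all members and 11 in the longest, and 94 were in the tercile with the highest GC content and 11 in the lowest. For the 62 genes lower, the numbers were 34 and 13 by length and 23 and 18 by GC content. Across 11420 genes, the difference had Spearman's rho of -0.16 with length and 0.19 with GC content, given as a description with no test. With a smooth trend in both removed, 116 genes were at least 2-fold higher and 69 lower, and the median was 0.90 for histones, 0.78 for the integrated stress response and 0.50 for interferon-stimulated genes. The part of these properties in the counts was not tested further.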

How the data were processed

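Per the labels' protocols, RNA was taken up in Trizol and made into TruSeq libraries. Per the file headers, the values the authors deposited are FPKM, with 2 decimals. Per the submitters' processing notes, Bowtie 0.12.2 was among the tools and GRCh38.p12 and mm8, a mouse build, among the genome builds, each with no role stated. How fragments were quantified is not given in the sources used here, nor are the annotation and strand setting. Ratios of low values showed no steps of whole reads, so the depth is unknown and an exact 0 is reported as listed at 0; precision from depth could not be given.

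Of 16800 lines of the compound table, 40 without a complete gene were left out. Columns were matched to samples by name, and 0 columns were left unmatched. Differences are of log2(FPKM + 1) among genes with at least 1 FPKM in either library, counted at 2-fold and 1.5-fold. With 1 library a side no test was run. The members and the 43 gene lists were chosen with earlier results of these data known. Named genes were the 15 largest differences per direction, the 4 largest in each list, the 10 largest FPKM gains and losses, the 10 per direction that differed most between the lines, and DYNC1LI1. Other genes named, among them those in the closing section, were chosen after their values were seen. Genes with near-identical copies are uncertain. Coordinates are from RefSeq (GRCh38.p14); transcript length and GC content are from GENCODE. Alternatives were a pseudocount of 0.1, other filters, equal totals, median centring, quantile normalization and removal of a length and GC trend. A few named genes are not reported here. The counting was tested on simulated data. Python 3.11.15, numpy 2.4.6 and pandas 2.3.3 were used.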

Additional observations from a re-analysis of the deposited data

Results flagged for a closer look

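Genes were looked at again where the difference at 2.5 µM went in opposite directions in the 2 lines by at least 2-fold each. DHRS2 had a difference of 2.43 in HCC827 and -1.04 in NCI-H1975, which are 3.48 apart. H4C11 had 2.88 and -3.78, which are 6.67 apart, and H4C12 had -2.61 and 3.57, which are -6.18 apart. H4C11 and H4C12 are near-identical copies, and in each line 1 of the pair was listed at 0 in a library where the other was not. With 1 library per line and treatment, none of these differences between lines was tested.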

How the results depend on the processing

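With 1 library a side, an unknown depth and 2-decimal values, some counts moved with the treatment of low genes. By the higher of the 2 libraries, 2857 genes were under 5 FPKM, and 2.42% of them were at least 2-fold higher or lower. That share was 1.61% from 5 to 20 FPKM, 1.49% from 20 to 100 and 3.16% from 100 FPKM. With a pseudocount of 0.1, 293 genes were at least 2-fold higher and 137 lower, and 573 were at least 1.5-fold lower. With at least 5 FPKM required in either library, 98 were at least 2-fold higher. The cause was not tested. All other alternatives kept the 4 counts within 1.5 times, the length and GC trend, chosen after seeing the data, included (116 higher and 69 lower, 62.7% of these higher against 70.5%). Among list medians, squamous and barrier genes had 0.41, and -0.067 with at least 1 FPKM in both libraries or -0.22 with at least 5 in either; the cause was not tested. The histone median was 1.51 with a pseudocount of 0.1 and 0.36 with no filter on low values. A mesenchymal switch list of 7 members, SNAI1 and VIM among them, had a median of 0.71. That median ran from 0.02 to 1.63 over the settings. Of 203 named genes 17 moved by more than 1.5 times with a pseudocount of 0.1, a setting that cannot turn a sign. With the other settings, no named gene at least 1.5-fold higher or lower was turned in sign. Smaller differences were not checked for this. No paired analysis was possible because each group had 1 library.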

Other observations

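Some genes at least 2-fold higher at 2.5 µM belong to none of the gene lists; those below were chosen after their values were seen. S100P, a calcium-binding protein of carcinomas, was at 5.79 FPKM with DMSO, 25.93 with 2.5 µM and 5.35 with 5 µM in HCC827. CPS1, the first enzyme of the urea cycle, was at 0.03, 2.34 and 0.03 FPKM, and ALPL, an alkaline phosphatase, at 0.07, 1.63 and 0.02. These 3 genes were higher at 2.5 µM than in either other library. SAT1, which breaks down polyamines, was at 58.8, 164.83 and 561.68 FPKM, and SMOX, spermine oxidase, at 21.19, 47.38 and 97.05; both were ordered by dose. APOBEC3B, a cytidine deaminase, was at 10.5, 35.61 and 39.75 FPKM. CD68, a lysosomal membrane protein, was at 107.92, 228.54 and 171.31 FPKM, and BLVRB, which acts after haem oxygenase, at 45.87, 100.72 and 89.72.

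Among lower genes outside the lists, HPGD, which inactivates prostaglandins, was at 64.84 FPKM with DMSO, 22.24 with 2.5 µM and 27.45 with 5 µM. CEACAM6, an adhesion protein, was at 98.88, 41.54 and 30.1 FPKM, and SPDEF, a transcription factor of goblet cells, at 17.49, 7.05 and 3.82. MUC5AC, another gel-forming mucin, was at 3.36, 0.7 and 0.48, and FOXQ1 at 5.83, 2.3 and 1.27. PLAU, the protease urokinase, was at 459.48, 219.71 and 187.24 FPKM, and LPCAT1, a lipid acyltransferase, at 498.22, 240.47 and 141.17. U2AF1, a splicing factor with a near-identical copy, was at 3.68 FPKM with DMSO and listed at 0 at both doses in HCC827, and was at 77.81 FPKM with DMSO in NCI-H1975.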
